A study of Sus scrofa with 12 samples.

Results

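Porcine oocytes of a class named LG and a class named SM, both matured in vitro without the growth factor GDNF, were compared gene by gene. The comparison took every array whose source label is LG control or SM control, 6 of the 12 arrays of the series, 3 in each class. The labels do not spell out the names SM and LG. The other 6 arrays hold the same classes matured with GDNF, a neurotrophic ligand that signals through the RET receptor kinase.

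All oocytes came from crossbred prepubertal gilts, whose age in days is not given in the labels. They were kept for 44 h in TCM199 medium holding 10% follicular fluid of the pig, LH, FSH and EGF, and the control groups had no compound added. Cumulus cells were then removed with hyaluronidase and a glass pipette, so each array reads denuded oocytes at the end of maturation. The RNA was amplified from poly(A) tails by 2 rounds of in vitro transcription. Each array set 1 pool of oocytes, in one dye, against a common reference of oocytes from all groups, in the other dye. The design text counts 9 independently collected biological replicates per condition, 3 of them on an array, whereas the labels give 2 per pool for the samples and 16 for the reference. Neither number entered a calculation. Precision is limited by the 3 arrays a class, and over all genes the standard error of the class difference had a median of 0.196.

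The fully grown oocyte stops transcribing and lives on stored messenger RNA until the embryo switches on its own genome. During maturation many stored messages are lengthened at the poly(A) tail and translated, and others are deadenylated and destroyed. An amplification that starts from poly(A) tails therefore reads tail length as well as the amount of a message, and these cannot be told apart here.

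The values are log ratios of the authors, taken here as log2, and their direction could not be settled. The sample carried Cy5 on slide 1 and Cy3 on slides 2 and 3, and the sources used here do not say which channel is the numerator or whether slides of opposite dye had been turned alike. Each slide held 1 array of every group: SM control 1, 2 and 3 on slides 1, 2 and 3, and LG control 1, 3 and 2 on the same slides in that order. Values below are LG minus SM in the deposited ratios unless stated otherwise. "Higher on LG" therefore means a higher deposited ratio and not more messenger RNA. Beside them stand the values of slides 2 and 3 alone, which run the same way as each other, and those of the opposite reading, in which the sign of slides 2 and 3 was turned. Across the 11916 genes the mean ratio of slide 1 correlated with that of slide 2 at 0.639 and with that of slide 3 at 0.615, and slides 2 and 3 correlated at 0.590. These are descriptions across genes that share arrays and probes.

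No gene passed the test between LG and SM oocytes. Limma, with Benjamini-Hochberg adjustment over all genes, called 0 of 11916 genes (0%), and the smallest adjusted p was 0.674. At an unadjusted p under 0.05 there were 846 genes, 7.10% of those tested, against 595.8 by chance. Of these, 386 (3.24%) were higher on LG and 460 (3.86%) lower. The opposite reading gave 461 genes and slides 2 and 3 alone 533, both under the count that chance gives. The 3 LG and 3 SM values of a gene did not overlap for 1118 genes (9.38%), 589 with LG higher (4.94%) and 529 with LG lower (4.44%). The class difference had the same sign on all 3 slides for 3123 genes (26.2%). LG was higher for 50.8% of all genes and lower for 49.2%. Testing every feature by itself, with or without a gene symbol, also gave 0 calls among 45220 features, and 3412 (7.55%) had an unadjusted p under 0.05. Among the 27099 features without a symbol these were 2040 (7.53%).

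**Figure D1:**
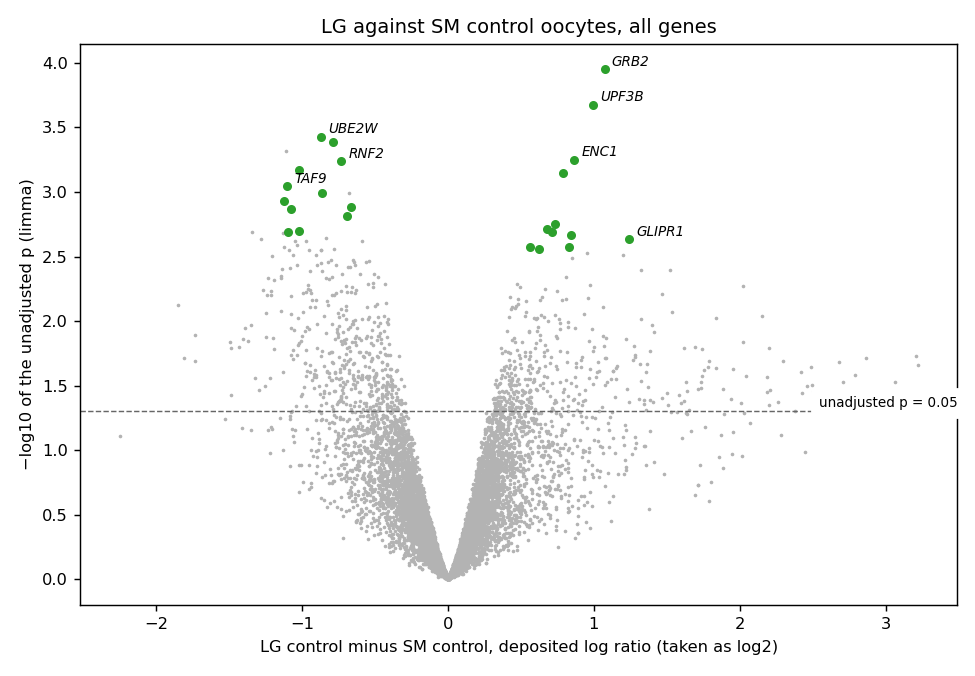
Each point is 1 of 11916 genes. The horizontal axis is the LG minus SM difference of deposited log ratios in control oocytes, the vertical axis −log10 of the unadjusted p in limma, and the dashed line lies at an unadjusted p of 0.05. Green points are the 24 genes with the smallest p on each side among genes with a full symbol. No gene reached an adjusted p under 0.05, and the cloud has a longer arm to the right, where 34 genes exceed 2 against 1 gene below -2. LG control 2 was the highest LG array in 33 of these 34 genes, and 1 of them stayed above 2 without that array.

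The class difference was not much alike from slide to slide. Across genes, the differences of slides 1 and 2 correlated at 0.282, those of slides 1 and 3 at 0.0690 and those of slides 2 and 3 at -0.0635. Single control arrays correlated with each other from -0.105 (SM control 2 and LG control 1) to 0.562 (SM control 3 and LG control 3), with a median of 0.364 over 15 pairs. The closest pair thus joined the classes.

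LG control 2 stood apart from the other control arrays in its spread. LG control 2 had a standard deviation of 0.871 over all features, against 0.454 to 0.547 on the other 11 arrays, and 527 features beyond 4 in size against at most 10 elsewhere. Of the 169 genes with a difference above 1, LG control 2 was the highest LG array in 161, and 37 stayed above 1 without it. Of the 87 genes below -1, 46 stayed beyond it. SM control 2 was the highest SM array in 75.9% of the 460 genes lower on LG, against 38.3% of all genes, and LG control 3, on the same slide, was the highest LG array in 69.3% of them, against 31.0%.

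The genes with the smallest p, 12 on each side, are described next as the upper edge of this distribution. All 24 had the same adjusted p in limma, 0.674, so none passed. Their sign agreed on 3 of 3 slides, against 26.2% of all genes. The classes did not overlap in 21 of 24, against 9.38% of all genes, the exceptions being MIDN, TAF9 and SNX31. A choice by p favours both counts, and it also favours the reading as deposited. Of the 24 genes, 22 were read by 1 feature.

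GRB2, the adaptor that couples activated receptor tyrosine kinases to RAS, had the smallest p. Its deposited ratio was -0.22, -0.12 and -0.25 on SM control 1, 2 and 3, and 0.65, 0.73 and 1.25 on LG control 1, 2 and 3. The 3 LG arrays stood well above the 3 SM arrays, which lay close together. The means were -0.20 ± 0.068 (SD, n = 3) in SM and 0.88 ± 0.324 (SD, n = 3) in LG. The difference was 1.07 with a standard error of 0.168, and 0.87, 1.37 and 0.98 on slides 1, 2 and 3. An exact two-sided permutation test over the 6 arrays gave p = 0.10, the smallest that 3 against 3 allows. Slides 2 and 3 alone gave 1.18, and the opposite reading -0.49.

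PID1, GPR101, CRABP2 and NRIP2 were also higher on LG as deposited. PID1, a phosphotyrosine-interaction protein studied in insulin signalling, read -0.59, -0.82 and -0.53 on SM and 0.28, 0.05 and 0.12 on LG. Its difference was 0.79 (standard error 0.159). GPR101, an orphan G protein-coupled receptor, read -0.12, 0.32 and -0.03 on SM against 0.54, 0.52 and 0.99 on LG, a difference of 0.62. Both genes kept the classes apart without any 1 array lying far out. CRABP2, a carrier that hands retinoic acid to its nuclear receptor, read -1.35, -1.11 and -1.03 on SM. It read -0.47, -0.29 and -0.24 on LG, a difference of 0.83 (standard error 0.205) with 0.88, 0.87 and 0.74 on the 3 slides. The slides of this gene lay close together. NRIP2, a protein that binds nuclear receptors, read -0.68, -1.19 and -0.65 on SM against -0.11, 0.23 and -0.51 on LG, and the lowest LG value lay close to the highest SM value.

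UPF3B, a factor that ties the exon junction complex to nonsense-mediated messenger RNA decay, had the second smallest p. It read -0.20, -0.28 and -0.35 on SM and 0.83, 0.93 and 0.40 on LG. The difference was 1.00 (standard error 0.17), 0.98 on slides 2 and 3 alone and -0.31 in the opposite reading. ENC1, a kelch-repeat protein that binds actin, read -0.13, 0.05 and 0.34 on SM and 1.04, 1.08 and 0.73 on LG. Its difference of 0.86 shrank to -0.08 in the opposite reading, the smallest size there among the 24. SIRT1, the NAD-dependent deacetylase of histones and other proteins, had a difference of 0.68, and its 2 features gave 0.51 and 0.84.

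The rest of the genes higher on LG were of mixed kinds. FRRS1, a ferric-chelate reductase, read -0.71, -0.90 and -0.58 on SM against -0.02, -0.11 and 0.12 on LG. CAPN12, a calpain protease, read -1.10, -0.59 and -0.51 against -0.27, 0.62 and -0.02. Both left a gap between the classes. GLIPR1, of the CAP protein superfamily, had the largest difference of these 12 genes, 1.24, but read 0.27, 2.28 and 0.92 on LG and moved to 0.84 without LG control 2. MIDN, midnolin, which brings proteins to the proteasome, had the smallest, 0.56. Its LG control 3 at -0.34 lay below SM control 1 at -0.24, so the classes overlapped.

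UBE2W had the smallest p among the genes lower on LG. This enzyme, which attaches ubiquitin to the amino end of proteins, read 0.67, 1.00 and 0.55 on SM and -0.31, -0.14 and 0.06 on LG. The means were 0.74 ± 0.236 (SD, n = 3) and -0.13 ± 0.185 (SD, n = 3), and the difference was -0.87 (standard error 0.161). All 3 SM arrays were above all LG arrays. RNF138, a RING ubiquitin ligase of DNA end resection, read 0.28, 0.99 and 0.16 on SM against -0.51, -0.78 and -0.35 on LG, a difference of -1.02. RNF2, the catalytic ligase of Polycomb repressive complex 1, read 0.44, 0.60 and 0.44 on SM against -0.41, -0.20 and -0.10 on LG, a difference of -0.73. In the opposite reading the sizes of UBE2W, RNF138 and RNF2 were 0.22, 0.50 and 0.16, with the sign turned.

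TAF9, MED21 and NEIL3 act in the cell nucleus. TAF9, a subunit shared by TFIID and SAGA, had a difference of -1.10 but read -0.52, 0.86 and 0.25 on SM and -1.36, -1.31 and -0.05 on LG. The classes overlapped, since SM control 1 lay below LG control 3. MED21, a Mediator subunit, read 0.59, 0.76 and 0.38 on SM against -0.16, -0.31 and 0.20 on LG, a difference of -0.67. NEIL3, a glycosylase that removes damaged bases, read -0.13, 1.20 and 0.20 against -0.90, -1.05 and -0.16, a difference of -1.13, the largest of these 12 in size. Its SM values spread widely, with SM control 2 far above the other 2.

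The remaining 6 genes lower on LG are of mixed kinds. CD82, a tetraspanin, read 0.36, 0.78 and 0.39 on SM and -0.28, -0.27 and -0.29 on LG. Its LG arrays differed from each other by less than those of any other named gene. TMED7, a cargo receptor between endoplasmic reticulum and Golgi, had a difference of -0.87, and SNX31, a sorting nexin, one of -1.10. PIBF1, a protein of centriolar satellites, had -1.02 and FAM169A -1.08. MRPS24, of the small mitochondrial ribosomal subunit, had -0.69, but its 2 features disagreed at -1.23 and -0.16. In all 12 genes lower on LG, SM control 2 was the highest SM array, and in 11 of them LG control 3 was the highest LG array. These arrays share slide 2, and the part of the slide in these genes was not tested beyond the slide term of the fit. Without SM control 2 the sizes of the 12 lay between 0.58 and 1.07, and without LG control 3 between 0.71 and 1.29.

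**Figure D2:**
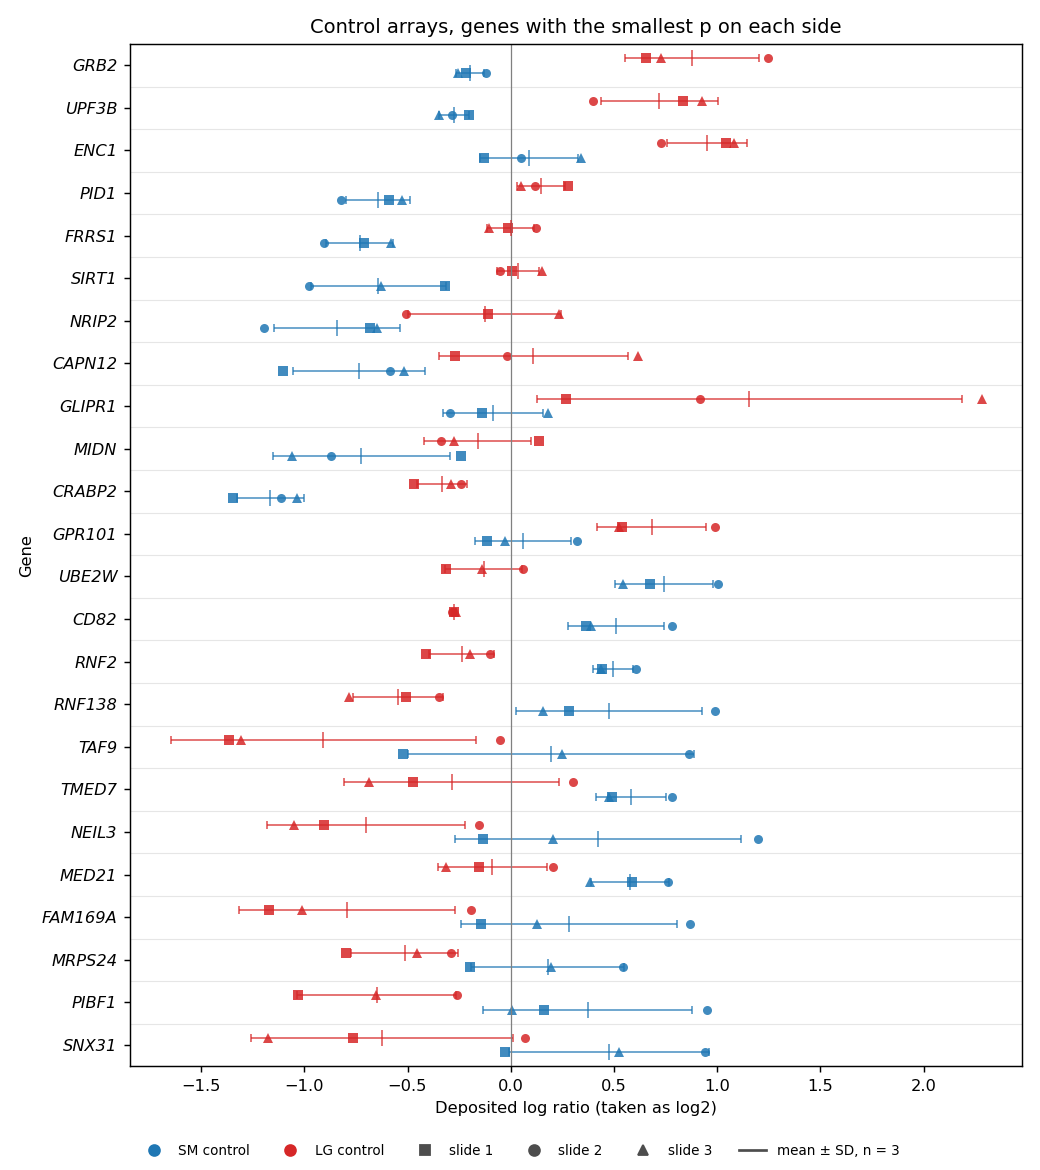
Deposited log ratios of the 24 genes on the 6 control arrays, with SM control in blue and LG control in red. Squares, circles and triangles are slides 1, 2 and 3, and the tick and bar give the mean ± SD of 3 arrays. The red and blue points separate in 21 of 24 genes, against 9.38% of all genes, a count that the choice by p favours. In the lower 12 genes the blue circle of SM control 2 is always the rightmost blue point.

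Turning the sign of slides 2 and 3 changed the picture of every one of these genes. In the opposite reading all 24 had the other sign, with sizes from 0.082 to 0.971. None then had an unadjusted p under 0.05 in limma, and the smallest was 0.0505. On slides 2 and 3 alone the sizes ran from 0.61 to 1.66. Because all 24 turned, the 2 sets of 12 stayed on opposite sides of each other in both readings. A gene with the same sign on all 3 slides turns here unless slide 1 outweighs slides 2 and 3 together. The turn and the opposite sides were therefore largely set by the choice of these genes.

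The same class comparison in oocytes matured with GDNF is the closest measure that the choice of these genes did not use, although it shares the fit's estimate of spread and the slides. There, 13 of the 24 genes had the same sign, against 51.3% of all genes (6112 of 11916). The sizes ran from 0.025 to 0.709. CRABP2 was alike in both: with GDNF it read -0.97, -0.32 and -0.73 on SM against 0.35, -0.32 and 0.08 on LG. The difference was 0.71 (standard error 0.205), and the class difference changed by 0.12 (standard error 0.290) between the media. GRB2 stood the other way with GDNF, at -0.12, 0.36 and 0.41 on SM and -0.32, -0.30 and -0.53 on LG, a difference of -0.60 (standard error 0.168). ENC1 did so too, at -0.50 (standard error 0.168). UBE2W had 0.12 and UPF3B -0.05, both within 1 standard error.

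The difference between the 2 class differences was itself tested in limma. It passed for 0 of 11916 genes (0%), and 499 (4.19%) had an unadjusted p under 0.05. GRB2 had the smallest adjusted p, 0.636, with a change of 1.67 (standard error 0.238) in the class difference. The other 23 named genes had an adjusted p of 0.991 in limma. Of the 24, 19 had an unadjusted p under 0.05, a count that the choice by the control arrays favours because the interaction holds that same difference. Across all genes the class differences without and with GDNF correlated at 0.0893, as a description over genes on shared slides. No difference is therefore shown to be particular to oocytes matured without GDNF.

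**Figure D3:**
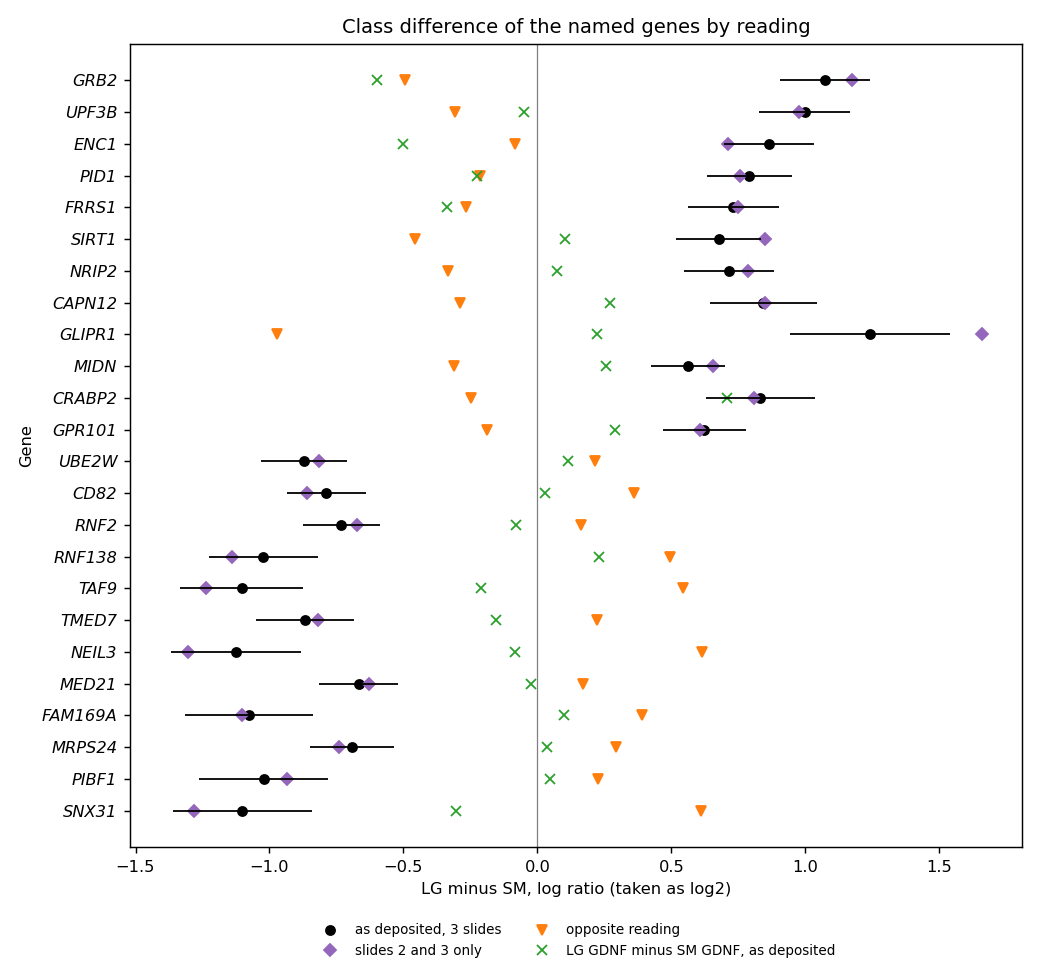
LG minus SM difference of the 24 genes on the log2 scale. Black circles with bars give the difference as deposited and its standard error, purple diamonds slides 2 and 3 alone, orange triangles the opposite reading and green crosses the same classes matured with GDNF. Every orange triangle lies across 0 from its black circle, and only CRABP2 has its green cross within the bar.

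Gene groups were read next, by 18 lists of oocyte, follicle and general cell genes that hold 382 distinct measured genes. No member passed, and 36 (9.42%) had an unadjusted p under 0.05, against 7.10% of all genes. The lists and their members were chosen with earlier results of these data known, and some hold genes named above for their p. This share is therefore favoured by the choice and is no test. The list medians ran from -0.20 to 0.35, 5 on the side higher on LG and 13 on the other, against a median of 0.00 over all genes. In the opposite reading they ran from -0.44 to 0.16, 9 above 0 and 9 below. The median kept its sign on all 3 slides in 5 lists.

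Oocyte-secreted factors and the zona pellucida, the glycoprotein coat that sperm bind, had the largest list median. At an unadjusted p under 0.05 there was 1 of 12 measured members (8.33%), against 7.10% of all genes. Of the 12, 10 were higher on LG, against 50.8% of all genes, with a median of 0.35. The slides did not share this: the list medians of the class difference were -0.15, 0.08 and 0.94 on slides 1, 2 and 3. Without LG control 2 the median was 0.06, and without SM control 3 it was 0.09. Slides 2 and 3 alone gave 0.57 with all 12 members higher, and the opposite reading -0.44 with 1 of 12 higher.

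The zona genes differed mainly on slides 2 and 3. ZP2, a zona glycoprotein that takes part in sperm binding in the mouse, read -0.73, -0.70 and -0.44 on SM and -0.91, 1.16 and 0.72 on LG. Its difference was -0.18 on slide 1 but 1.43 and 1.59 on slides 2 and 3, hence 0.95 (standard error 0.431) as deposited and -1.07 in the opposite reading. It was 0.54 without LG control 2 and 1.59 without LG control 1. ZP4, another coat protein, read -0.52, -0.59 and -0.34 on SM against -0.52, 0.52 and 0.05 on LG, with slide differences of 0.00, 0.64 and 0.86. Its difference of 0.50 was 0.25 without LG control 2 and 0.76 without LG control 1. ZP3, a further coat protein, had slide differences of -0.07, 0.47 and 1.16 and a difference of 0.52 (standard error 0.307), or 0.26 without SM control 3 and 0.78 without LG control 1. For all 3 genes LG and SM were close on slide 1 and apart on both other slides, where the sample carried the other dye.

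GDF9 and BMP15, growth factors by which the oocyte steers its granulosa and cumulus cells, did not move alike. GDF9 read 0.38, 1.53 and -0.34 on SM and -0.35, 2.84 and 0.94 on LG, so the classes overlapped widely. Its difference of 0.62 (standard error 0.726) became -0.39 without LG control 2. BMP15 read -0.83, -0.28 and -0.39 on SM and -0.39, -0.38 and -0.27 on LG, a difference of 0.16 (standard error 0.459). Neither difference exceeded its standard error.

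Genes that the egg stores for the embryo overlapped between the classes, as most genes did. Over all genes, 9.38% did not overlap. ZAR1, a protein that binds stored messages, read 0.09, 1.49 and -0.12 on SM and -1.05, 2.43 and 0.33 on LG, a difference of 0.08 (standard error 0.615) that became -0.84 without LG control 2. NLRP5, of the subcortical maternal complex, differed by -0.05 (standard error 0.204). BTG4, an adaptor that brings the CCR4-NOT deadenylase to maternal messages in the mouse, read -0.88, 1.34 and 0.18 on SM and -1.64, -1.38 and -0.16 on LG. LG was lower on every slide, with differences of -0.76, -1.49 and -1.55, and the difference over slides was -1.27 (standard error 0.355), but the classes overlapped. NPM2, a histone chaperone of the egg, had 0.86, but its 5 features ran from -0.16 to 2.14 and LG control 2 at 2.09 set it: without that array it was 0.22, and without SM control 3 it was 0.54. In the list of maternal-effect genes 3 of 10 measured members were higher on LG and the median was -0.15.

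Meiosis and spindle genes had 13 of 29 measured members higher on LG and a median of -0.07, with list medians of -0.37, -0.35 and 0.33 on the slides. At an unadjusted p under 0.05 there were 1 higher and 3 lower, 13.8% of the list against 7.10% of all genes. MAD2L1, of the spindle assembly checkpoint, read -0.52, 2.45 and 0.00 on SM and -1.77, -1.16 and -0.33 on LG, a difference of -1.73 (standard error 0.621), or -1.04 without SM control 2. CKS1B, a small partner of cyclin-dependent kinases, read -0.30, 1.32 and 0.20 against -1.27, -0.21 and -0.02, a difference of -0.91. In both genes SM control 2 stood far above the other control arrays. LG GDNF 2, also on slide 2, read 2.03 for MAD2L1 and 1.15 for CKS1B. MOS, the kinase that holds the mature egg at metaphase II, read -0.21, -0.33 and 0.47 on SM and 0.60, 3.52 and 0.34 on LG. Its difference of 1.51 was 0.76 without LG control 2. KIT, the receptor for the follicle's kit ligand, differed by 0.02 (standard error 0.139). FIGLA, a transcription factor of oocyte genes, differed by -0.06 (standard error 0.347).

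**Figure D4:**
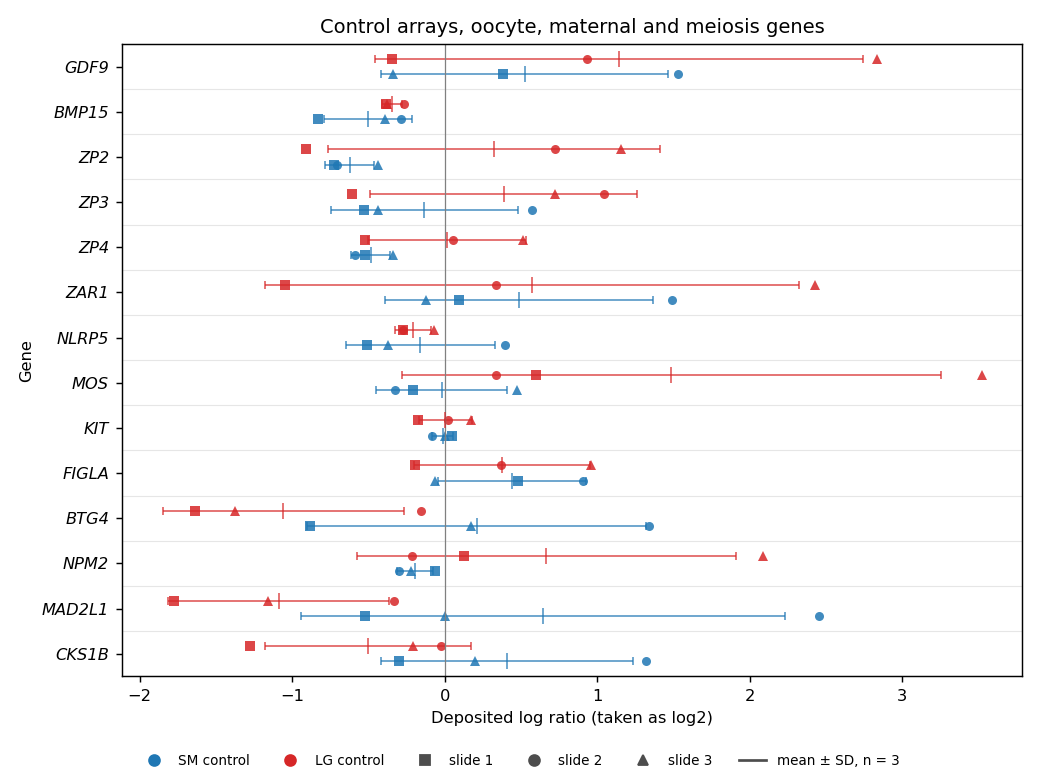
Deposited log ratios of 14 oocyte, maternal-effect and meiosis genes on the 6 control arrays, with SM control in blue and LG control in red. Squares, circles and triangles are slides 1, 2 and 3, and the tick and bar give the mean ± SD of 3 arrays. The classes overlap in all 14 genes, as in most genes, since 9.38% of all genes do not overlap. The far right points are LG control 2 (GDF9, ZAR1, MOS, NPM2) or SM control 2 (MAD2L1, BTG4, CKS1B).

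Markers of other follicle cells were followed because cumulus cells adhere to oocytes before they are stripped. A ratio against an oocyte reference gives no level, so whether these cells were present could not be checked. Of 9 measured cumulus and granulosa markers 1 was higher on LG, with a median of -0.15 and a range from -0.94 to 0.03. Of 9 measured oocyte markers 8 were higher on LG, with a median of 0.50, or 0.25 without LG control 2 and 0.09 without SM control 3. These marker medians stood on opposite sides as deposited, but both were below 0 in the opposite reading, at -0.02 and -0.57. Theca and stroma markers had a median of 0.07 (6 of 7 higher) and blood and endothelium markers one of -0.06 (1 of 3 higher). The part of other cells in the class differences was not tested.

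Within the wider follicle lists single genes stood out little. KITLG, the kit ligand of granulosa cells, read 0.26, 0.57 and 0.17 on SM and -0.31, -0.65 and 0.09 on LG, a difference of -0.62 that was -0.41 without LG control 2. Its 2 features gave -1.28 and 0.04. GJA1, the connexin that couples cumulus cells, had 0.39 (standard error 0.190), or 0.62 without LG control 2, and about 0.00 in the opposite reading. HAS2, the hyaluronan synthase of cumulus expansion, read 0.42, 0.57 and 0.62 on SM and 0.26, 0.27 and 0.94 on LG, a difference of -0.05. Cumulus and granulosa genes as a list had 6 of 21 members higher on LG and a median of -0.05, against 12 of 21 in the opposite reading. INSL3, a hormone of theca cells, had -0.73, and DCN, a proteoglycan of stroma, had 0.94, with LG control 2 at 2.22. Without that array DCN had 0.39, and without LG control 3 it had 1.47. In the list of theca, stroma and blood 11 of 16 members were higher on LG, with a median of 0.07, and 8 of 16 in the opposite reading.

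The receptor system of GDNF was read in oocytes that had received none. GDNF itself read 0.05, -0.34 and -0.98 on SM and -0.18, -0.21 and -0.45 on LG, a difference of 0.14 (standard error 0.201). GFRA1, the co-receptor that binds GDNF, read -0.03, -0.34 and -0.33 on SM and -0.31, 0.16 and 0.19 on LG, a difference of 0.25 (standard error 0.180). The difference was -0.28 on slide 1, against 0.53 and 0.49 on slides 2 and 3. Leaving out 1 control array at a time gave 0.087 to 0.44 for GFRA1, 0.025 to 0.39 for RET and -0.53 to -0.095 for SDC3. RET, the signalling kinase, differed by 0.21 (standard error 0.221), and SDC3, a heparan sulfate proteoglycan that also binds GDNF, by -0.29 (standard error 0.234). Of 9 measured ligands and receptors 6 were higher on LG, against 50.8% of all genes, and the median was 0.12. An unadjusted p under 0.05 in limma was reached by 0 of the 9, against 7.10% of all genes. With 9 genes this count says little. In the opposite reading 1 of 9 was higher.

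Downstream of such receptors, GRB2 had the highest difference of its list. Of 23 measured adaptors and RAS pathway genes 9 were higher on LG, and the median was -0.10, or -0.06 with 8 higher in the opposite reading. An unadjusted p under 0.05 in limma was reached by 2 of the 23, 8.70% of the list against 7.10% of all genes. Besides GRB2 this was MAP2K1, the kinase MEK1 of the MAP kinase cascade, at -0.48 (standard error 0.157). It read -0.14, 0.43 and 0.12 on SM and -0.47, -0.44 and -0.13 on LG. Its 5 features were all lower on LG, from -1.01 to -0.20.

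Lists that hold other genes named above had medians within 0.15 of 0 as deposited. Of 21 ubiquitin-conjugating enzymes 12 were higher on LG, with a median of 0.01, or -0.19 with 4 higher in the opposite reading. UBE2W lay at one end, and UBE2Q1, another conjugating enzyme, lay at the far end with 2.30 (standard error 0.822). UBE2Q1 read -0.72, -1.48 and 0.00 on SM and 0.56, 4.37 and -0.23 on LG, and its difference was 1.08 without LG control 2. All 5 of its features were higher on LG, from 1.77 to 2.75. Polycomb genes had 8 of 24 higher, with a median of -0.09, against 14 of 24 higher in the opposite reading. The 3 Polycomb genes at an unadjusted p under 0.05 were all lower, 12.5% of the list against 7.10% of all genes. RBBP7, a histone-binding subunit, had -0.60, or -0.40 without SM control 2, with its 3 features from -0.89 to -0.03.

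In nonsense-mediated decay 9 of 14 genes were higher on LG, with a median of 0.14. UPF3B had 1.00, while RNPS1, an exon junction protein, had -0.50, or -0.33 without SM control 2, with 2 features at -0.87 and -0.13. TFIID and general transcription factors had 10 of 25 higher, with a median of -0.13. TAF11, another TFIID subunit, read -0.04, 1.02 and -0.16 on SM and -0.68, -0.42 and -0.47 on LG, a difference of -0.80, or -0.51 without SM control 2. Its 2 features gave -0.81 and -0.79. Genes of DNA methylation and histone deacetylation had 10 of 21 higher, with a median of -0.05. At an unadjusted p under 0.05 there were 4 higher and 1 lower, 23.8% of the list against 7.10% of all genes. TET1, an enzyme that oxidises methylcytosine, read -0.34, -0.42 and -0.47 on SM and -0.06, 0.13 and 0.14 on LG. Its difference was 0.48 (standard error 0.185), the arrays within each class lay close, and the opposite reading gave -0.30. Without SM control 3 it was 0.32.

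Genes that lengthen or remove poly(A) tails had 12 of 32 higher on LG and a median of -0.02. PABPC1L, the poly(A)-binding protein of oocytes, had -0.52 (standard error 0.185), with slide differences of -0.37, -0.64 and -0.56. ZFP36, which marks AU-rich messages for decay, had 0.40 (standard error 0.145). In gap junctions and cell contact 5 of 12 were higher, and PANX1, a channel protein, had 0.39, or 0.15 without SM control 2.

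In glycolysis and pyruvate use 4 of 19 genes were higher on LG, against 50.8% of all genes, with a median of -0.09. The 3 genes at an unadjusted p under 0.05 were all lower, 15.8% of the list against 7.10% of all genes. The slides disagreed, with list medians of 0.02, 0.17 and -0.38, and without LG control 2 the median was 0.13 with 11 of 19 higher. In the opposite reading 14 of 19 were higher, with a median of 0.16. DLAT, a pyruvate dehydrogenase subunit, read 0.13, 0.69 and 0.09 on SM and -0.37, -0.29 and 0.04 on LG, a difference of -0.51, but its 2 features gave -0.996 and -0.03. LDHB, a lactate dehydrogenase subunit, had -0.54, or -0.36 without LG control 2, with features at -0.22 and -0.86. In lipid and sterol metabolism 8 of 23 were higher, with a median of -0.14, against 13 of 23 and 0.04 in the opposite reading. PLIN2, a coat protein of lipid droplets, had -0.45, or -0.21 without LG control 2. SCD, the desaturase that makes monounsaturated fatty acids, had -0.66, with features at -1.23 and -0.10.

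Genes against oxidative stress had 12 of 24 higher on LG and a median of -0.01. TXN, thioredoxin, read -0.38, 1.35 and 0.28 on SM and -0.98, -0.95 and -0.01 on LG, a difference of -1.06 (standard error 0.268). The classes overlapped, and SM control 2 was again the highest array. SOD1, a superoxide dismutase, had -0.77 (standard error 0.405), with 0.27 on slide 3 against -0.98 and -1.61 on slides 1 and 2. It was -0.37 without SM control 2 and -1.15 without LG control 2.

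Cytosolic ribosomal protein genes had the lowest list median as deposited, -0.20, with 16 of 48 higher on LG. In the opposite reading 28 of 48 were higher, with a median of 0.06. Leaving out 1 control array moved the median from -0.54 without SM control 2 to 0.03 without SM control 3. The slides disagreed on this list: its class difference was -0.19, 0.51 and -1.05 on slides 1, 2 and 3. On the arrays the list median ran from -0.59 on LG control 2 to 0.83 on LG control 3, both of 1 class, while SM arrays lay between 0.09 and 0.49. At an unadjusted p under 0.05 there was 1 gene on each side, 4.17% of the list against 7.10% of all genes. RPS28 read -0.05, 1.09 and 0.25 on SM and -0.81, -0.68 and 0.27 on LG, a difference of -0.84 that its 2 features shared at -0.82 and -0.85. RPS3 had 0.87, with features at 1.66 and 0.07. With GDNF the list median of the class difference was -0.45.

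**Figure D5:**
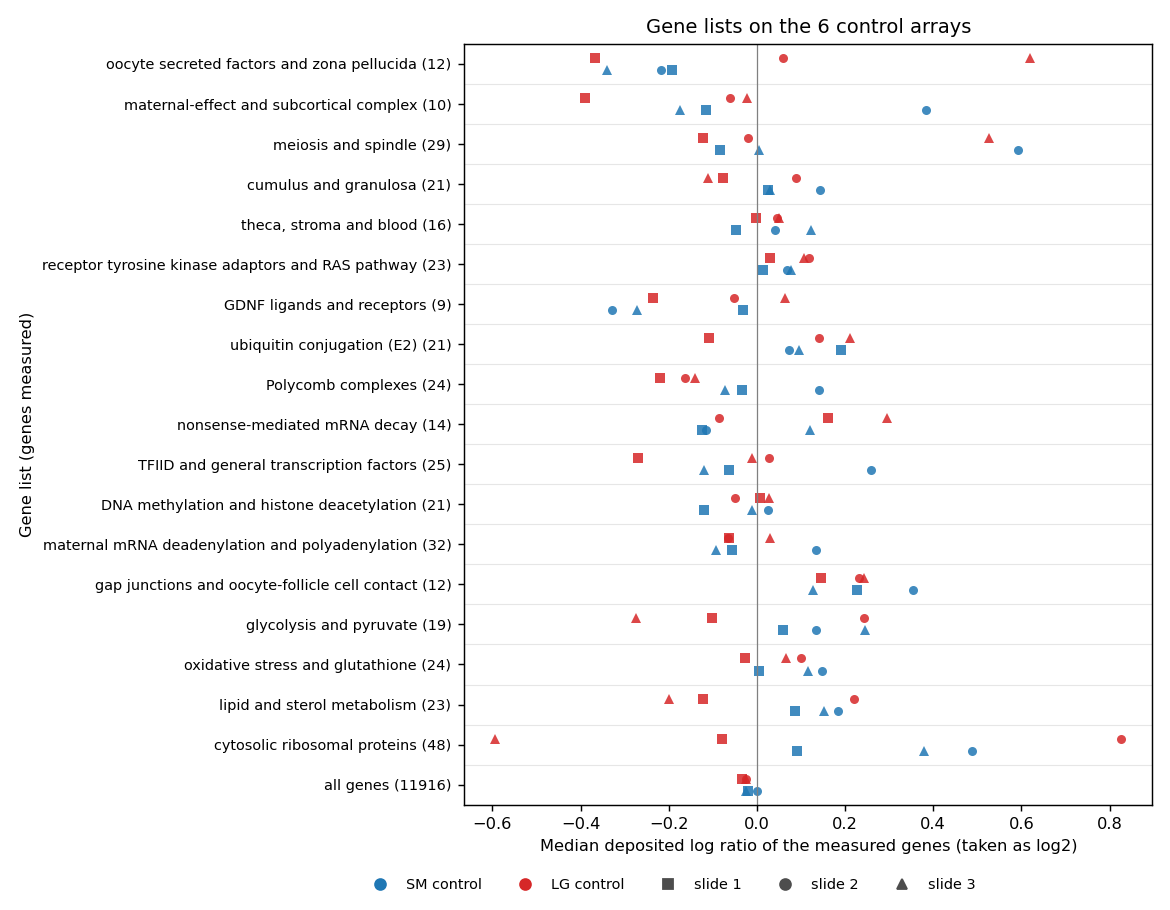
Median deposited log ratio of the measured genes of each list on the 6 control arrays, with SM control in blue and LG control in red. Squares, circles and triangles are slides 1, 2 and 3, and the number of genes measured is in brackets. The ribosomal list spreads the furthest, from -0.59 to 0.83 within LG, and over all genes the medians lie near 0.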

How the data were processed

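The authors deposited 1 log ratio for each of 45220 features of a 2-colour array, taken here as log2. The sources used here name no log base, numerator, normalization or build. The median of every array lay between -0.0106 and 0.0215 and the median size was 0.267 on all 12, so the values had been centred and scaled. Spot intensities and flags were not used here.

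By the platform annotation 18121 features had 1 symbol, 27099 had none and 0 had several. RefSeq served to update symbols: 124 changed and 2534 were kept by accession, 15236 were current, 224 were synonyms and 3 stayed as filed. Features were averaged into 11916 genes, 3326 with several features and 881 with a LOC placeholder.

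Limma 3.58.1 in R 4.3.3 fitted 4 groups and the slide to 12 arrays (6 residual degrees of freedom), two-sided, after a test on simulated data. Correlations and summaries used Python 3.11.15 with pandas 2.3.3, and the exact permutation test scipy 1.17.1. P-values measure the spread between these pools. Named genes are the 12 with the smallest p on each side (no LOC symbols), the 2 smallest of each of 18 lists, and 14 fixed oocyte and follicle genes, 13 of them measured. CYP19A1 was not measured here. Members and lists were chosen with earlier results of these data known. Pool numbers were not used as pairs in the main fit. The deviations of same-numbered control pools correlated at 0.20, 0.12 and -0.06. Pool 1 lies on slide 1 in both classes, so pool and slide cannot be told apart there. In all, 18 alternatives were planned and 1 was added.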

Additional observations from a re-analysis of the deposited data

How the results depend on the processing

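Adjusted calls in limma stayed at 0 under all 19 alternatives, with the smallest adjusted p from 0.208 (without SM control 2) to 0.999. The count at an unadjusted p under 0.05 was 846 as reported. It was 533 on slides 2 and 3, 461 in the opposite reading, 1289 with array weights and 3412 of 45220 with every feature by itself. Leaving out 1 control array gave 617 to 885. With the pool number as a replicate block in place of the slide it was 884, and with both blocks, chosen after seeing the data, 1005. The remaining alternatives gave 650 to 877. The 24 genes with the smallest p kept their sign in every alternative except the opposite reading. Their choice by p on these same arrays favours that outcome.

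The opposite reading turned 59 of the 64 genes named by rule. Values above 0 there were 0.22 (UBE2W), 0.36 (CD82), 0.16 (RNF2), 0.50 (RNF138), 0.54 (TAF9), 0.22 (TMED7), 0.61 (NEIL3), 0.17 (MED21), 0.39 (FAM169A), 0.29 (MRPS24), 0.23 (PIBF1), 0.61 (SNX31), 0.76 (BTG4), 0.90 (MAD2L1), 0.26 (CKS1B), 0.24 (KITLG), 0.60 (INSL3), 0.26 (MAP2K1), 0.31 (RBBP7), 0.28 (RNPS1), 0.37 (TAF11), 0.28 (PABPC1L), 0.18 (DLAT), 0.34 (LDHB), 0.66 (TXN), 0.12 (SOD1), 0.23 (PLIN2), 0.21 (SCD), 0.33 (RPS28), 0.20 (NLRP5). Values below 0 were -0.49 (GRB2), -0.31 (UPF3B), -0.082 (ENC1), -0.22 (PID1), -0.27 (FRRS1), -0.46 (SIRT1), -0.33 (NRIP2), -0.29 (CAPN12), -0.97 (GLIPR1), -0.31 (MIDN), -0.25 (CRABP2), -0.19 (GPR101), -0.50 (ZP4), -1.07 (ZP2), -0.73 (NPM2), -0.36 (DCN), -0.43 (GFRA1), -1.45 (UBE2Q1), -0.30 (TET1), -0.10 (ZFP36), -0.37 (PANX1), -0.44 (RPS3), -1.10 (GDF9), -0.57 (ZP3), -0.84 (ZAR1), -0.97 (MOS), -0.17 (KIT), -0.30 (GDNF), -0.14 (RET). The turned sign is the construction of this alternative.

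Leaving out 1 control array turned 7 genes, with ranges of -0.39 to 1.36 (GDF9), -0.84 to 0.64 (ZAR1), -0.20 to 0.18 (NLRP5), -0.078 to 0.13 (KIT), -0.42 to 0.22 (FIGLA), -0.12 to 0.34 (GDNF) and -0.20 to 0.14 (HAS2). Without LG control 2 and LG GDNF 3 the values were -0.56 (GDF9), -0.96 (ZAR1), -0.058 (KIT), -0.042 (GDNF) and 0.11 (HAS2). With array weights they were -0.47 (ZAR1), -0.043 (KIT), -0.042 (GDNF) and 0.020 (HAS2). ZAR1 had -0.28 after quantile normalization, KIT -0.011 with the median of features, and FIGLA 0.24 and HAS2 0.010 on slides 2 and 3. The cause of these turns was not tested. Signal over background was not used here, so dim spots could not be told from bright ones.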

Other observations

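A few genes outside the rule were looked at after their values were seen. SAT1, the enzyme that acetylates spermidine and spermine, read 0.24, 1.48 and 0.32 on SM and -0.86, -0.13 and -0.21 on LG, a difference of -1.08 (standard error 0.308). CMAS, which activates sialic acid, read 0.01, 1.29 and 0.03 on SM and -1.33, -1.13 and -0.25 on LG, a difference of -1.35 (standard error 0.318). In both SAT1 and CMAS the 3 SM arrays lay above the 3 LG arrays, and SM control 2 was the highest. TRIO and XPC stood on the other side, without overlap of the classes. TRIO had a difference of 1.20 (standard error 0.302), or 1.66 without SM control 2 and -0.04 in the opposite reading. XPC had 0.95 (standard error 0.238), with 3 features from 0.04 to 2.11, and -0.49 in the opposite reading.

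Some genes differed in opposite ways on slide 1 and on slides 2 and 3, where the sample carried the other dye. ASNS, asparagine synthetase, had class differences of -1.56, 1.06 and 3.04 on slides 1, 2 and 3. ZFAND3, a zinc finger protein, had -0.94, 0.95 and 1.36. As deposited their differences were 0.85 (standard error 0.721) and 0.46 (standard error 0.455), and in the opposite reading they were -1.89 and -1.08.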
